A study of Mus musculus with 4 samples.

Results

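The genes described here are 10 known repressors of the 2-cell-like state of mouse embryonic stem (ES) cells, namely Chaf1a, Chaf1b, Rif1, Pcgf6, L3mbtl2, Zmym2, Smchd1, Morc3, Atrx and Daxx. They were chosen by symbol from what is known of their function, at a time when earlier results of these data were known. All 10 were found among the 19797 gene symbols of the RefSeq transcript table. RNA-seq had been made from MC1-ZE7 cells, an ES cell line of strain MC1 (129S6/SvEvTac) in which the green fluorescent protein Emerald reports transcription of Zscan4. Cells grown without feeders in serum and leukemia inhibitory factor were sorted into the fraction with high Emerald fluorescence (Em+, 2 libraries) and the fraction without it (Em-, 2 libraries). Both fractions carry the same reporter and come from the same line and medium, with no further treatment. Whether the 2 libraries of 1 fraction stem from different cultures or sorting runs is not in the labels, and the p-values here therefore reflect library-to-library spread alone, possibly technical. Groups were taken from the sample titles, which go with the cell type field, whereas the description of every sample gives the other fraction. Zscan4c, the gene whose activity the design separates, had 39.1 and 42.3 CPM (counts scaled to a common library size) in Em+ libraries, against 0.220 and 0.316 CPM in Em- libraries, which goes with the titles.

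A small, changing share of ES cells transcribes genes of the 2-cell embryo, such as the Zscan4 cluster, and several chromatin complexes keep those genes silent in the other cells. CAF-1 places new histones on replicated DNA, PRC1.6 is a variant Polycomb complex that holds down germ-line and 2-cell genes, and ZMYM2 is a zinc finger protein that binds SUMO and works with the histone demethylase LSD1. ATRX and DAXX together load the histone variant H3.3 at repeats, SMCHD1 and MORC3 are chromatin ATPases of the GHKL type, and RIF1 sets the timing of replication and supports silencing of retroelements. Loss of several of these factors is known to increase the share of 2-cell-like cells. The comparison of Em+ with Em- cells asks whether their transcripts differ between ES cells that are and are not in the Zscan4-positive state.

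The library totals behind the deposited FPKM values (counts per transcript length and library total) lay between 35907644 and 37905681 reads, and the RefSeq transcripts held 17927765 and 16468218 counts in Em+ libraries and 18364973 and 18953217 counts in Em- libraries. Em+ replicate 2 stood apart from the other libraries, with 43.4% of its total in RefSeq transcripts against 49.0% in Em+ replicate 1, and with 7.95% of its counts in Rn45s, a ribosomal RNA precursor, against 3.93 to 4.33% in the other libraries. The chi-square per degree of freedom over RefSeq symbols, Rn45s included, was 26.9 between the Em+ libraries and 3.61 between the Em- libraries. Neither pair was thus a repeat within sampling noise. Rn45s had 703861 and 1309319 counts in the Em+ libraries, a difference that enters the 26.9, and its share of that value was not tested. ES cell markers summed to 3566 and 3285 CPM in Em+ libraries, against 3661 and 3616 CPM in Em- libraries, and all 6 were expressed. Summed levels in Em+ libraries and then in Em- libraries were 16.7 and 17.2 against 15.995 and 15.5 CPM for 5 primitive endoderm markers, and 9.42 and 10.7 against 8.68 and 8.91 CPM for 4 trophectoderm markers. The 5 fibroblast markers summed to 141 and 126 CPM in Em+ libraries and to 136 and 127 CPM in Em- libraries, and the 3 measured formative and primitive streak markers to 53.8 and 46.0 CPM in Em+ libraries and to 64.0 and 66.3 CPM in Em- libraries. Of the 4 trophectoderm markers, Cdx2 was near 0, with 1 and 3 counts in Em+ libraries and 2 and 1 counts in Em- libraries. Eomes had the most, with 142 and 120 counts in Em+ libraries and 137 and 138 counts in Em- libraries. Elf5 had 18 and 29 counts in Em+ against 16 and 26 in Em- libraries. For Gata3 these were 8 and 17 against 3 and 4 counts.

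None of the 10 repressors passed the test between Em+ and Em- cells (edgeR quasi-likelihood test, adjusted p under 0.05 over 12050 genes), in a comparison in which 4.64% of all tested genes did (3.82% higher and 0.822% lower). Beside this count of 0, 2 of the 10 had an unadjusted p under 0.05, which held for 25.3% of all tested genes, and neither DESeq2 (5.75% of all genes called) nor limma on log2(FPKM + 1) (2.43%) called any of them. Log2 fold changes of Em+ over Em- ran from -0.24 for Chaf1b to 0.29 for Zmym2, and 8 of the 10 were smaller than 0.15 in size. Over the 10 intervals of 95% confidence, the highest bound allowed a level 1.40 times that of Em- cells, for Zmym2, and the lowest a level 0.755 times that of Em- cells, for Chaf1b. The median log2 fold change was 0.09, beside 0.0032 over all tested genes, and it was 0.05 without Em+ replicate 2. When libraries were scaled to the total behind FPKM instead, the median of all genes moved to -0.157 and that of the 10 to -0.0735, so a log2 fold change of about 0.1 changes its sign with the scaling. In bulk samples, a change in the number of cells that express a gene cannot be told apart from a change in the RNA per cell.

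**Figure D1:**
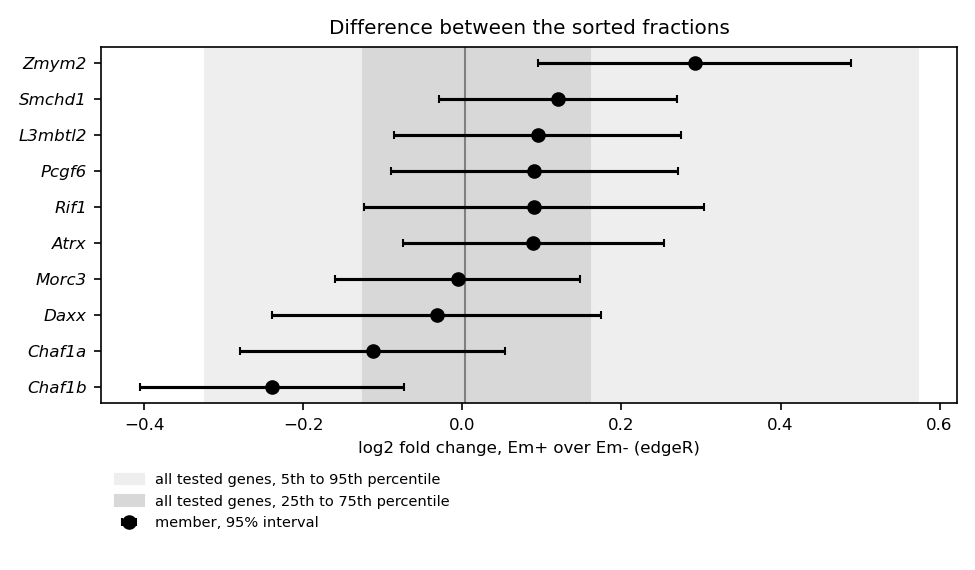
Log2 fold change of Em+ over Em- cells (horizontal axis, edgeR) for each repressor, with its interval of 95% confidence. The shaded bands span the 5th to 95th percentile (-0.32 to 0.57) and the 25th to 75th percentile (-0.12 to 0.16) of all tested genes, and the intervals of Zmym2 and Chaf1b are the ones that leave out 0. With scaling to the library total, the points of Smchd1, L3mbtl2, Pcgf6, Rif1 and Atrx lie below 0.

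By scaled CPM, the ranges of the groups did not overlap for 8 of the 10 repressors, which was the case for 59.4% of all tested genes. Of these 8, 6 lay higher in Em+ cells (29.7% of all tested genes) and 2 lower (29.7%), although 5 of the 6, all but Zmym2, had a log2 fold change below 0 with scaling to the library total. The standard deviation over the libraries was larger in Em+ than in Em- cells for all 10 repressors, beside 71.95% of all tested genes.

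By scaled CPM, the subunits of CAF-1 were the 2 repressors with both Em+ libraries below both Em- libraries. With deposited FPKM, this also held for Morc3, at 35.3 and 28.3 FPKM in Em+ libraries against 35.4 and 35.8 FPKM in Em- libraries. Chaf1b, the middle subunit, had 73.7 and 69.8 CPM in Em+ libraries, against 84.6 and 84.8 CPM in Em- libraries. The Em- values were almost equal, and the Em+ values lay below them. The log2 fold change was -0.24 (SE 0.071, interval -0.40 to -0.07), and with an unadjusted p = 0.0110 and an adjusted p = 0.101 by edgeR it did not pass the test. Chaf1a, the large subunit that binds PCNA at the replication fork, had 125 and 114 CPM in Em+ libraries and 131 and 128 CPM in Em- libraries. The gap between the groups was smaller than the distance between the Em+ libraries. The difference was -0.11 on the log2 scale (interval -0.28 to 0.05, SE 0.071, edgeR adjusted p = 0.351). The FPKM ratio of Chaf1a to Chaf1b was 0.982 and 0.943 in Em+ libraries, against 0.895 and 0.871 in Em- libraries.

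The 250 bases before the start site of both CAF-1 genes are shown because they held letters of an E2F site, GCGGGAA or TTCCCGC on the other strand, the site through which E2F factors act on genes of the G1/S transition. Of the 9 repressors with an entry in the RefSeq promoter table (GRCm38.p6, Rif1 has none), these 2 held it, beside 4.38% of 27025 genes. G and C made up 61.2% of the Chaf1a window and 68.4% of the Chaf1b window, beside a median of 52.4% over all windows. The shares over all genes are not matched for base composition, and an excess of the letters was not tested. CACGTG, an E-box, was found before Chaf1a and no other of the 9, beside 6.86% of all genes. TGCACAC, a motif bound by ZSCAN4, was in 0 of the 9, beside 4.19% of all genes. The motifs were searched on both strands and did not overlap each other. Capitals mark the matches, in the Chaf1a window chr17:56040166-56040415 and the Chaf1b window chr16:93883651-93883900, both on the + strand.
Chaf1a: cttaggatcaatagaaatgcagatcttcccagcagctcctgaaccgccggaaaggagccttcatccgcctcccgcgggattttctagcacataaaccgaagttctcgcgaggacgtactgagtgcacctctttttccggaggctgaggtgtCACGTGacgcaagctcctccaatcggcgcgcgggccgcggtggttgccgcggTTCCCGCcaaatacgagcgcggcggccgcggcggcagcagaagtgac
Chaf1b: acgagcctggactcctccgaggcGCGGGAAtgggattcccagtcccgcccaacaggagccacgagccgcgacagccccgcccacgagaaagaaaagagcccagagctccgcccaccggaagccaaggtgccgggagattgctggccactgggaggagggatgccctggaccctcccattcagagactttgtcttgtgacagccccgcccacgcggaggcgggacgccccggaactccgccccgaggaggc
The E2F letters began 47 bases before the Chaf1a start (as TTCCCGC) and 227 bases before the Chaf1b start (as GCGGGAA), and the E-box 99 bases before the Chaf1a start. A match is a description of these letters and not a bound site.

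Genes with a peak in late G1 and S phase, which include many E2F targets, had a median of -0.17 on the log2 scale, or -0.11 with Em+ replicate 2 left out, and 13 of the 16 lay below 0, but none passed the test. Their CPM summed to 3083 and 2913 in Em+ libraries, against 3381 and 3378 in Em- libraries. The members with the lowest adjusted p were Gins2 of the GINS replication complex, with a log2 fold change of -0.28 (edgeR adjusted p = 0.0686), and Mcm6 of the replicative helicase, also at -0.28 (edgeR adjusted p = 0.0818). The 10 genes of G2 and M phase had a median of 0.08 and no call, and their sums, 5139 and 4969 CPM in Em+ libraries against 4910 and 4963 CPM in Em- libraries, lay close together. The part of cell cycle genes in the Chaf1a and Chaf1b values was not tested.

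Among 10 genes of histone supply and replication-coupled assembly that work beside CAF-1, 1 passed the test, beside 4.64% of all tested genes. Tlk2, a kinase that acts on the histone chaperone ASF1, had 123 and 126 CPM in Em+ libraries, against 101 CPM in each Em- library. It rose in Em+ cells by 0.31 on the log2 scale (edgeR adjusted p = 0.0378, SE 0.062), a call that was lost with DESeq2 (adjusted p = 0.0534), with limma, with no filter on low values, with scaling to the library total (0.15, adjusted p = 0.572), in the other 3 transcript tables and without either Em- library. Cdan1, an ASF1 partner, stood at 0.29 (edgeR adjusted p = 0.0915) and Hat1, which acetylates new histone H4, at -0.16 (edgeR adjusted p = 0.239). The list had a median of 0.01, or -0.05 without Em+ replicate 1.

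**Figure D2:**
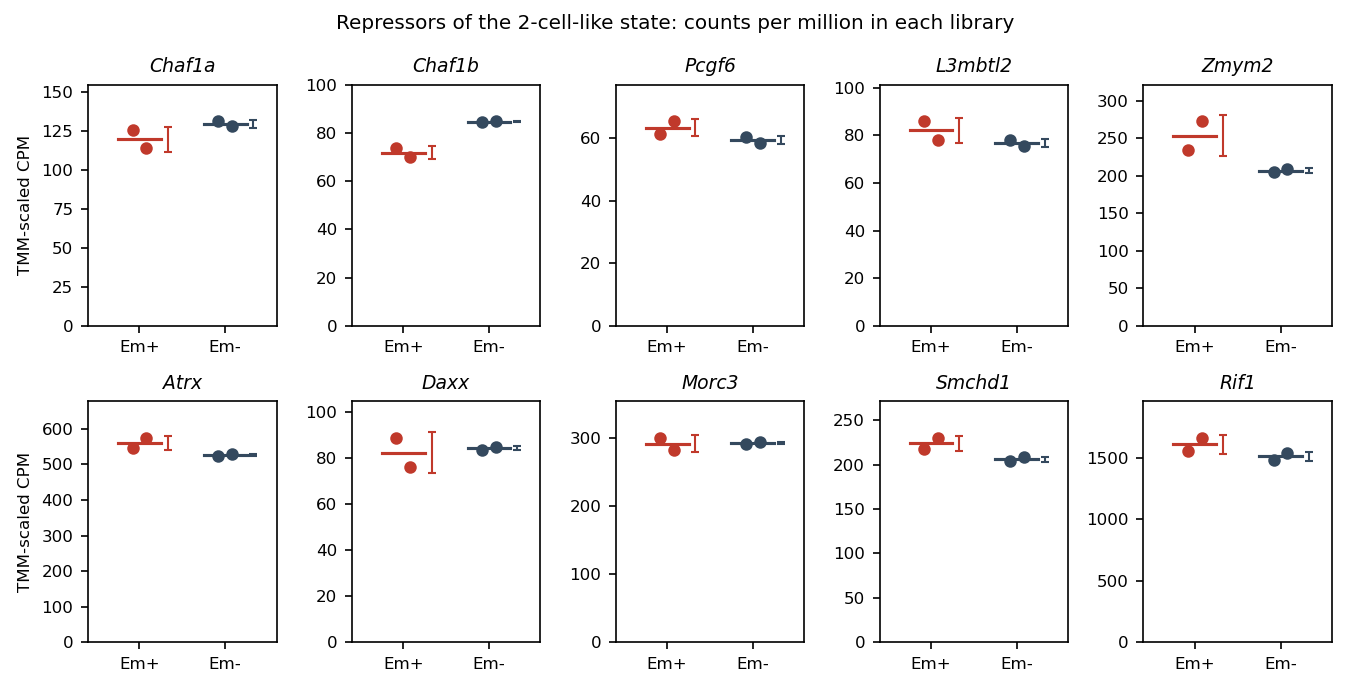
Scaled CPM (vertical axes, from 0) of each repressor in the 2 Em+ and 2 Em- libraries. Points are libraries, horizontal lines means and the bars beside them standard deviations. Em+ points lie below Em- points for Chaf1a and Chaf1b, while the groups overlap for Daxx and Morc3. Em+ points lie above Em- points for Zmym2, and for Rif1, Smchd1, Atrx, Pcgf6 and L3mbtl2 at this scaling but not when libraries are scaled to their totals.

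Zmym2 had the highest fold change of the set. It had 234 and 273 CPM in Em+ libraries, against 205 and 209 CPM in Em- libraries. Both Em+ libraries were above both Em- libraries, and the Em+ libraries lay farther from each other than Em+ replicate 1 lay from the Em- libraries. The log2 fold change was 0.29 (SE 0.084, interval 0.10 to 0.49), and with an unadjusted p = 0.00947 and an adjusted p = 0.0943 by edgeR it did not pass. With scaling to the library total it was 0.12 (edgeR adjusted p = 0.652), still above the median of all genes. Per length, the FPKM ratio of Zmym2 to Chaf1b was 0.884 and 1.09 in Em+ libraries, against 0.673 and 0.686 in Em- libraries, a ratio that does not depend on library scaling. These genes have the highest and the lowest log2 fold change of the set. The separation of their ratio follows from that choice and is no further evidence. None of the 14 genes of the LSD1-CoREST-HDAC complex and other ZMYM proteins passed the test, and their median log2 fold change was 0.06, or 0.03 without Em+ replicate 2. Hdac1, a histone deacetylase shared with PRC1.6, had 18.5 and 25.8 CPM in Em+ libraries and 15.9 and 15.1 CPM in Em- libraries (log2 fold change 0.51, edgeR adjusted p = 0.114). Zmym6, a relative of Zmym2, stood at 0.27 (edgeR adjusted p = 0.124).

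The PRC1.6 subunits Pcgf6, the Polycomb ring finger protein that defines the complex, and L3mbtl2, its MBT domain protein, differed little between the fractions. Pcgf6 had 61.3 and 65.3 CPM in Em+ libraries, against 60.4 and 58.5 CPM in Em- libraries. L3mbtl2 had 85.8 and 78.2 CPM in Em+ libraries, against 78.0 and 75.6 CPM in Em- libraries. The closest libraries of the groups lay within 1 CPM of each other for both genes. The log2 fold changes were 0.09 for Pcgf6 (interval -0.09 to 0.27, edgeR adjusted p = 0.491) and 0.09 for L3mbtl2 (interval -0.09 to 0.27, edgeR adjusted p = 0.471), and both were below 0 with scaling to the library total. None of 13 other PRC1.6 subunit genes passed the test, with a median of -0.03 and values from -0.23 for Cbx1, a heterochromatin protein (edgeR adjusted p = 0.336), to 0.51 for Hdac1. That list's median was below 0 in all settings but 1, turning to 0.00084 without Em+ replicate 2.

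Atrx, the remodeller, had 545 and 574 CPM in Em+ libraries, against 524 and 528 CPM in Em- libraries. Its groups did not overlap, and its log2 fold change was 0.09 (interval -0.07 to 0.25, edgeR adjusted p = 0.453), or -0.0735 with scaling to the library total. Daxx, the H3.3 chaperone that works with ATRX, had 88.6 and 75.9 CPM in Em+ libraries, against 83.4 and 84.8 CPM in Em- libraries. The Em- values lay between the Em+ values, and the log2 fold change was -0.03 (interval -0.24 to 0.17, edgeR adjusted p = 0.848). As the Em+ libraries went opposite ways in these genes, the FPKM ratio of Atrx to Daxx was 1.61 and 1.98 in Em+ libraries, against 1.64 and 1.63 in Em- libraries. Of 9 genes for H3.3, the HIRA chaperone and partners of ATRX-DAXX, none passed the test, and the median was 0.10, but -0.03 without Em+ replicate 2 and 0.18 without Em+ replicate 1. H3f3b, an H3.3 gene, stood at -0.27 (edgeR adjusted p = 0.0976) and Setdb1, an H3K9 methyltransferase, at 0.15 (edgeR adjusted p = 0.199).

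Of the GHKL ATPases, Morc3 was the gene with the smallest difference. It had 301 and 283 CPM in Em+ libraries, against 292 and 295 CPM in Em- libraries, with the Em- values inside the Em+ range. Its log2 fold change was -0.0058 (SE 0.066, edgeR adjusted p = 0.967), and the interval from -0.16 to 0.15 spans levels of 0.895 to 1.11 times that of Em- cells. Smchd1, known for silencing on the inactive X chromosome, had 218 and 230 CPM in Em+ libraries, against 204 and 208 CPM in Em- libraries. The groups did not overlap, and the log2 fold change was 0.12 (SE 0.064, interval -0.03 to 0.27, edgeR adjusted p = 0.278), or -0.0424 with scaling to the library total. Morc3 and Chaf1b are neighbours on chromosome 16, transcribed in the same direction with 7827 bases between them, and the FPKM ratio of Morc3 to Chaf1b was 1.87 and 1.86 in Em+ libraries, against 1.58 and 1.59 in Em- libraries.

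Of 4 tested genes for the SMCHD1 partner LRIF1 and other MORC proteins, 1 passed the test, beside 4.64% of all tested genes. The median was 0.22, or 0.05 with scaling to the library total, 0.06 without Em+ replicate 2 and 0.35 without Em+ replicate 1. Morc4 had 24.6 and 28.9 CPM in Em+ libraries, against 18.9 and 17.3 CPM in Em- libraries. It rose in Em+ cells by 0.56 on the log2 scale (SE 0.113, edgeR adjusted p = 0.0378), a call lost with scaling to the library total (0.39, adjusted p = 0.138), with limma, and without Em- replicate 2 (0.50, adjusted p = 0.101). Morc1, which silences transposons in the germ line, had 167 CPM in each Em+ library, against 200 and 202 CPM in Em- libraries (log2 fold change -0.27, edgeR adjusted p = 0.0525). Morc2a, a partner of the HUSH silencing complex, stood at 0.15 (edgeR adjusted p = 0.232).

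Rif1 was the most abundant of the set and did not pass the test. It had 1553 and 1661 CPM in Em+ libraries, against 1485 and 1534 CPM in Em- libraries. The groups did not overlap, with a gap between them smaller than the spread within either. The log2 fold change was 0.09 (SE 0.091, interval -0.12 to 0.30, edgeR adjusted p = 0.564), or -0.0735 with scaling to the library total. None of 6 genes for RIF1 partners passed the test, which are PP1 catalytic subunits, 53BP1 and the H3K9 methyltransferases GLP and G9a. Ppp1ca, a PP1 catalytic subunit, stood at -0.28 (edgeR adjusted p = 0.107) and Ehmt2, which encodes G9a, at -0.24 (edgeR adjusted p = 0.149).

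On the scale of RefSeq FPKM, which is per length, all 10 repressors lay above the median of the tested genes, 6.89 FPKM, at percentiles from 62.3 to 97.6. Levels and their order hold for the RefSeq models only. By known genes, the same Smchd1 transcript had 1.84 and 1.79 FPKM in Em+ libraries and 1.93 and 2.00 FPKM in Em- libraries. Rif1 averaged 87.8 FPKM over the 4 libraries, Morc3 33.7, Atrx 25.4, Chaf1b 19.8, Chaf1a 18.1, Zmym2 15.95, Daxx 14.97, Smchd1 14.6, Pcgf6 14.0 and L3mbtl2 10.02 FPKM. The ranges over the libraries did not overlap between Rif1 and Morc3, Morc3 and Atrx, Atrx and Chaf1b, or Pcgf6 and L3mbtl2. From Chaf1b down to Pcgf6, each gene overlapped the next, so their order is not fixed beyond the spread. Chaf1b was nevertheless above Chaf1a in each of the 4 libraries, by 1.02 to 1.15 times, and Pcgf6 above L3mbtl2 by 1.30 to 1.52 times.

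**Figure D3:**
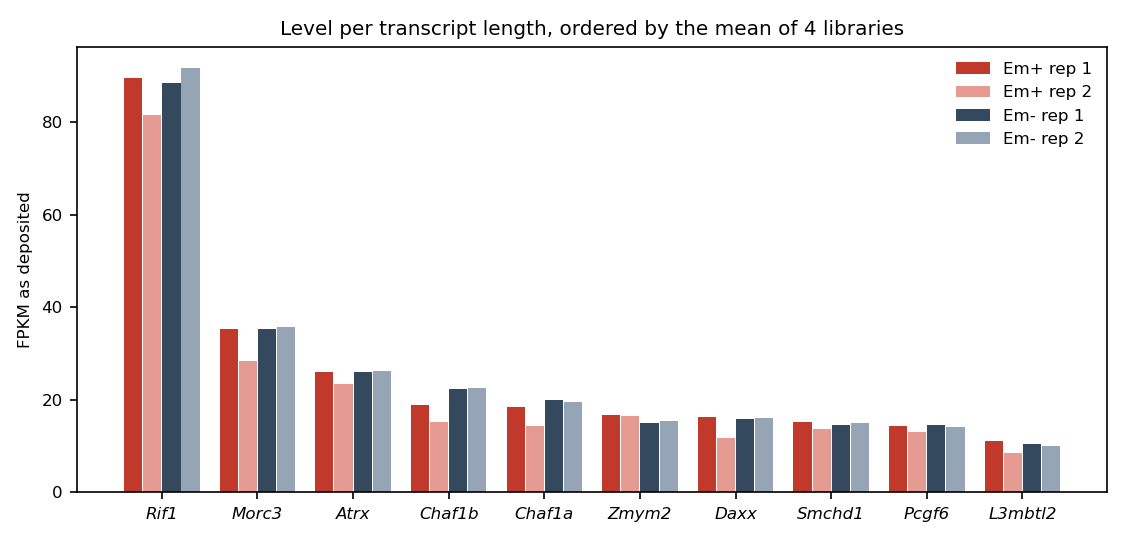
RefSeq FPKM as deposited (vertical axis, from 0) of each repressor in the 4 libraries, in order of the mean. Rif1, at 81.6 to 91.7 FPKM, stands above the rest, while the genes from Chaf1b to Pcgf6 overlap with their neighbours.

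With 1 Em+ library left out, some repressors passed the test that did not with all 4 libraries. Without Em+ replicate 1, 7 of the 10 passed the test, with Rif1, Zmym2, Smchd1 and Atrx higher and Chaf1a, Chaf1b and Daxx lower, but 41.4% of all tested genes passed as well (21.9% higher and 19.5% lower). Without Em+ replicate 2, Zmym2 (log2 fold change 0.18, edgeR adjusted p = 0.0136) was higher and Chaf1b (-0.20, edgeR adjusted p = 0.0241) lower, beside 16.3% of all tested genes (9.43% higher and 6.9% lower). In both fits the lone Em+ library is assumed to vary like the Em- libraries, which differ less from each other. RefSeq models of Rif1 (8502 bases), Zmym2 (6876), Smchd1 (7048), Atrx (10244) and Pcgf6 (2098) had higher CPM in Em+ replicate 2 than in replicate 1. Those of Chaf1a (3308 bases), Chaf1b (1913), Daxx (2681), Morc3 (4179) and L3mbtl2 (3810) had lower CPM there. The part of transcript length in these directions was not tested. Without either Em- library, none of the 10 was called, beside 4.07% and 4.87% of all tested genes. Zmym2 thus stood between 0.18 and 0.40 and Chaf1b between -0.28 and -0.20 whichever library was left out, whereas Morc3 and Daxx lay on both sides of 0.

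**Figure D4:**
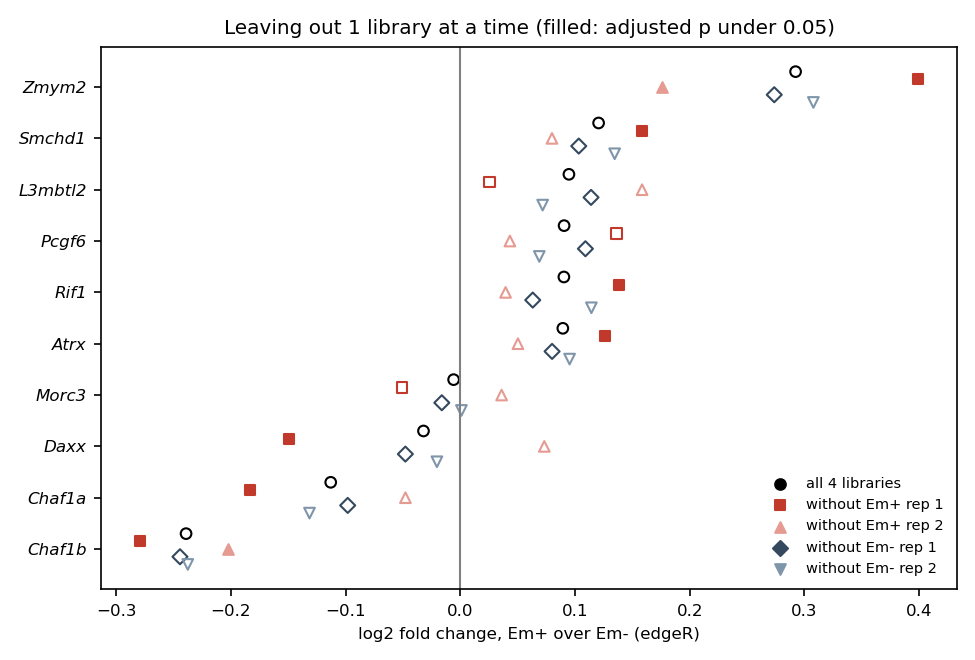
Log2 fold change of Em+ over Em- cells (horizontal axis, edgeR) for each repressor with all 4 libraries and with each library left out, filled where the adjusted p is under 0.05. Squares, without Em+ replicate 1, and triangles, without Em+ replicate 2, lie on opposite sides of the circles of all 4 libraries. Zmym2 and Chaf1b keep their sides of 0, whereas the points of Smchd1, L3mbtl2, Pcgf6, Rif1 and Atrx would lie below 0 with scaling to the library total.

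The fold changes rest on the transcript models counted. Daxx had 2 RefSeq transcripts and each of the other 9 repressors had 1. For Daxx, 1 of them took 99.8% of the reads, and L3mbtl2 was listed by a non-coding model only. The other deposited tables gave these genes other totals, such as 13.0% of the RefSeq reads for Smchd1 in the known-gene table and 68.9% for Rif1 in the ENCODE table, and how reads that match several models were counted is not given in the sources here. Under each of the 3 other tables the 10 repressors kept the direction of their RefSeq value, and none was called, beside 3.54% (known genes), 4.01% (Ensembl) and 4.1% (ENCODE) of all genes. Of the ENCODE models with at least 400 reads, 17 of 18 of Atrx, 7 of 7 of Smchd1, 6 of 6 of Rif1 and 5 of 5 of L3mbtl2 were above 0. This held for 2 of 3 of Daxx and 0 of 4 of Chaf1b, and the other repressors had 1 such model each. Models of a gene can overlap and come from the same libraries, so they are not separate observations. The share over all models was not counted. With scaling to the library total, Atrx, Smchd1, Rif1 and L3mbtl2 lay below 0 as genes. A model at the 5' end of Chaf1b (chr16:93884202-93887152) had 13.4 and 15.1 CPM in Em+ libraries, against 17.5 and 18.1 CPM in Em- libraries. A model at its 3' end (chr16:93904693-93906110) had 18.2 and 15.4 CPM in Em+ libraries, against 17.7 and 18.3 CPM in Em- libraries. The groups overlapped at the 3' end and not at the 5' end, and a difference between the models was not tested. Strand use in the counting is not given, and exons of the opposite strand share 620 bases with the Chaf1a span (Ubxn6) and 1023 bases with L3mbtl2 (Chadl), so reads of these pairs cannot be told apart.

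On mm10, the RefSeq models lie at chr17:56040416-56068026 (Chaf1a, + strand), chr16:93883901-93906106 (Chaf1b, +), chr14:56887795-56962579 (Zmym2, +), chr19:47033619-47050845 (Pcgf6, -) and chr15:81663889-81688315 (L3mbtl2, +). Those of the other genes lie at chrX:105797615-105929372 (Atrx, -), chr17:33909601-33915590 (Daxx, +), chr16:93832121-93876073 (Morc3, +), chr17:71344493-71475343 (Smchd1, -) and chr2:52072837-52122381 (Rif1, +).

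Factors reported to act on the same genes were set beside these 10. Of 23 other tested factors reported to hold down 2-cell genes, 1 passed the test, beside 4.64% of all tested genes, and the median was 0.04, or 0.0065 without Em+ replicate 1. Lin28a, an RNA-binding protein, had 312 and 258 CPM in Em+ libraries, against 381 and 394 CPM in Em- libraries. It fell in Em+ cells by 0.44 on the log2 scale (SE 0.095, edgeR adjusted p = 0.0451), a call lost with limma, in the other 3 tables, with a minimum of 5 FPKM, and without either Em- library (adjusted p = 0.0658 and 0.110). None of 15 SUMO pathway genes passed the test, although 12 lay below 0. Their median was -0.05, or -0.02 without Em+ replicate 1 (9 genes below 0) and -0.10 without Em+ replicate 2 (14 genes below 0). Sumo3 stood at -0.20 (edgeR adjusted p = 0.200) and the SUMO-activating enzyme gene Uba2 at -0.15 (edgeR adjusted p = 0.220). Over the partner, SUMO and repressor lists, 3 of 79 tested genes were called (3.798%), beside 4.64% of all tested genes.

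Factors reported to switch these genes on were counted in the same way. Of 6 tested activators of 2-cell genes, 5 rose in Em+ cells, beside 3.82% of all tested genes, but 2 of these 5, Zscan4c and Zscan4d, belong to the cluster the sort selects. Nelfa, a subunit of the pausing factor NELF, had 168 and 182 CPM in Em+ libraries, against 31.7 and 34.8 CPM in Em- libraries, a log2 fold change of 2.40 (edgeR adjusted p = 3.76e-06). The Nelfa value was 1.88 by known genes, 1.85 by Ensembl and 1.85 by ENCODE transcripts. Dppa2, which acts upstream of Dux, had 40.7 and 39.9 CPM in Em+ libraries, against 19.7 and 18.6 CPM in Em- libraries, a log2 fold change of 1.08 (edgeR adjusted p = 0.000252). Its partner Dppa4 stood at 0.16 (edgeR adjusted p = 0.297). Tbx3, a T-box factor, rose by 0.65 (edgeR adjusted p = 0.00855), a call lost with scaling to the library total and with limma. The 13 genes of the 2-cell stage in the fit were Zscan4a, Zscan4c, Zscan4d, Zfp352, Tcstv3, Tdpoz4, Usp17la, Usp17lb, Usp17lc, Usp17ld, Usp17le, Pramef25 and Arg2. Their CPM summed to 460.5 and 494 in Em+ libraries, against 4.51 and 5.90 in Em- libraries. None of the 13 reached a mean of 1 FPKM in Em- cells, so they entered the fit through Em+ cells alone, and their direction is a description of the sort and of this filter.

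**Figure D5:**
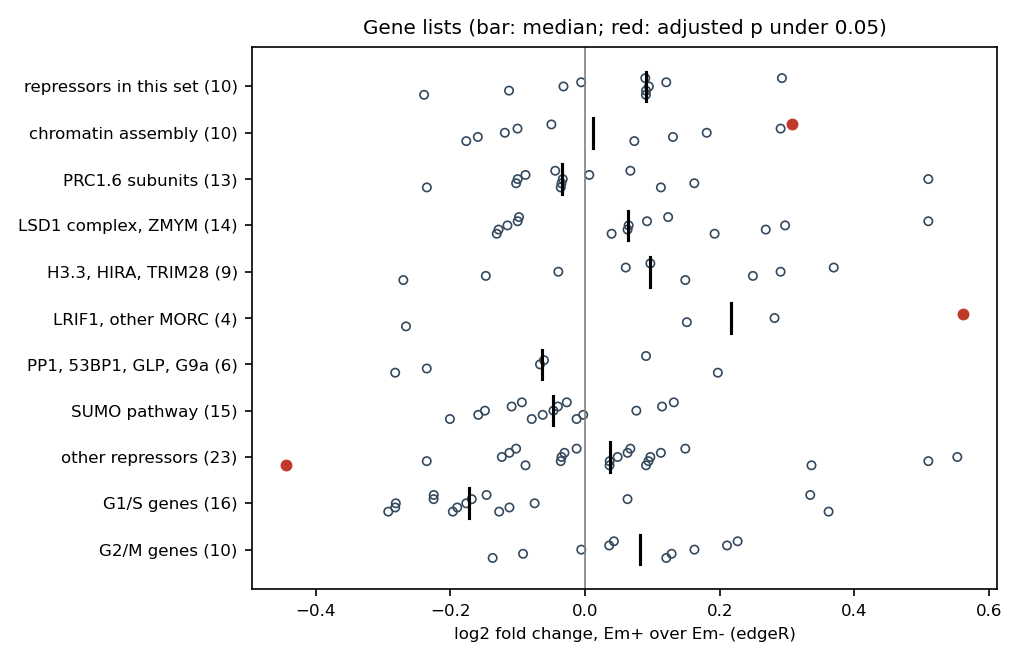
Log2 fold change of Em+ over Em- cells (horizontal axis, edgeR) of each tested gene in the repressor set, its partner lists and the cell cycle lists, with the number of genes in brackets. Vertical bars are medians and red points pass the adjusted p of 0.05, which are Tlk2, Morc4 and Lin28a. All repressors of the set are open points, and with scaling to the library total all values shift by about -0.157, which puts the medians of the set, chromatin assembly, LSD1, H3.3, other repressor and G2/M lists below 0.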

How the data were processed

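The authors deposited 4 tables on RefSeq, known-gene, ENCODE and Ensembl transcripts with, per the file headers, raw counts and FPKM values for each library. The submitters' processing notes name Bowtie2 (version not given) and build mm10. The counter, the annotation releases, strand use and the treatment of multiply matching reads are not given in the sources here. The RefSeq and Ensembl tables hold no counts of Em- replicate 1. In both, its counts were computed as FPKM (plus 0.0005 for truncation) times length times library total. In the other libraries this returned 99.95 to 99.97% of the deposited counts of 24538 RefSeq transcripts, and at least 99.9986% for 72703 Ensembl transcripts. Counts and FPKM were summed per symbol, and the 12050 genes averaging 1 FPKM or more were tested by edgeR 4.0.16 in R 4.3.3 (quasi-likelihood, TMM, two-sided, Benjamini-Hochberg adjustment, threshold 0.05, common biological coefficient of variation 0.0731). CPM values are TMM-scaled. Alternatives used DESeq2 1.42.0, limma 3.58.1, other scalings, filters and tables, and left out each library. Members and lists were chosen with earlier results of these data known. The text names all 10 repressors and, of each list, the genes called and the 2 with the lowest adjusted p of the rest. The trophectoderm markers, of which none was tested, are all named, as are Col1a1 and Col1a2, which were not tested. Starts in the files count from 0 and are printed from 1.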

Additional observations from a re-analysis of the deposited data

How the results depend on the processing

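Of 170 values from 17 alternatives for the 10 repressors, 140 kept direction and call, 10 gained a call and 20 turned sign. Scaling to the library total turned Rif1 (-0.0735), Pcgf6 (-0.0728), L3mbtl2 (-0.0605), Smchd1 (-0.0424) and Atrx (-0.0735). In the same order these were -0.0740, -0.0692, -0.0642, -0.0413 and -0.0726 by limma on log2(FPKM + 1), and -0.0747, -0.0737, -0.0709, -0.0440 and -0.0753 by limma on log2(FPKM + 0.1). These alternatives moved the median of all genes to -0.157, -0.135 and -0.160. Morc3 and Daxx turned to 0.0322 and 0.00510 with a minimum of 5 FPKM, and to 0.0360 and 0.0733 without Em+ replicate 2, against -0.0507 and -0.150 without Em+ replicate 1, and Morc3 to 0.00101 without Em- replicate 2. Zmym2 ran from 0.12 to 0.40 and Chaf1b from -0.40 to -0.20 over all alternatives.

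All genes gave 559 calls, 460 higher and 99 lower, against 627 with scaling to the library total, 334 higher and 293 lower. Calls numbered 1178 with no filter, 171 with a minimum of 5 FPKM, 293 and 269 by limma with pseudocounts of 1 and 0.1, and 490 to 4992 with 1 library left out. Repressors called ranged from 0 to 7 with 1 library left out. Partner lists with the activators, with 8 calls of 85 genes, gave 5 with library totals, 5 with a minimum of 5 FPKM, 4 and 4 by limma, and 6 to 49 with 1 library left out. Of the 8 calls with all libraries, 5 were activators, and those of Zscan4c and Zscan4d describe the sort. Without the activators, 3 of 79 genes were called. The cause of the changes between settings was not tested.

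The replicate block gave 1552 calls over all genes (12.9%), 1 repressor (Zmym2, edgeR adjusted p = 0.0317) and 15 partner genes. Whether same-numbered libraries share a culture or sorting run is not in the labels. Their deviations correlated at 0.0235 over genes, which cannot decide it, as Em+ replicate 2 stood apart from the other libraries.

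With 2 libraries in each fraction and SEs of 0.064 to 0.091, differences of the size seen here did not pass adjustment, although each repressor had 1034 or more reads in each library.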

Other observations

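Markers outside the repressor set are given as values. Nanog, a pluripotency factor, had 594 and 528 CPM in Em+ libraries, against 393 and 413 CPM in Em- libraries (log2 fold change 0.48, edgeR adjusted p = 0.0192). It was the 1 called of 6 ES cell markers, beside 4.64% of all tested genes. Sox2 stood at -0.29 (edgeR adjusted p = 0.0933) and Klf4 at 0.27 (edgeR adjusted p = 0.107). Thy1, listed as a fibroblast marker, had 20.5 and 19.5 CPM in Em+ libraries, against 10.5 and 11.2 CPM in Em- libraries (log2 fold change 0.89, edgeR adjusted p = 0.00386). Vim stood at -0.15 (edgeR adjusted p = 0.339) and Pdgfrb at 0.06 (edgeR adjusted p = 0.742). Col1a1 and Col1a2 of the same list were not tested. Col1a1 had 45 and 47 counts in Em+ against 18 and 28 in Em- libraries, and Col1a2 18 and 21 against 12 and 8. Gata4 of the primitive endoderm list stood at -0.08 (edgeR adjusted p = 0.733) and Otx2 of the formative list at -0.40 (edgeR adjusted p = 0.0596). Of the G2 and M genes, Cdk1 stood at 0.21 (edgeR adjusted p = 0.116) and Cenpf at 0.23 (edgeR adjusted p = 0.135).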
